A study of Mus musculus with 6 samples.

Results

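Type I interferon stimulated genes were examined in B1a cells from the peritoneal cavity (PC) of 7-week-old female mice on the C57BL/6 background. The members are 37 genes named in a list, found on the array by gene name, and all 37 were on it, with 50 of its 55681 probes. Knockout mice (p40-/-IL-2Rα-/-, labelled p40-/-CD25-/-) lack both p40, a chain of the cytokine IL-12, and CD25, the α chain of the interleukin-2 receptor. Control mice (p40-/-IL-2Rα+/-, labelled p40-/-CD25+/-) also lack p40 and keep 1 copy of the CD25 gene. Mice of the knockout genotype develop bile duct inflammation and are used as a model of primary biliary cholangitis. The gene deletions are carried by all cells of these mice and not by B cells alone, so B1a cells were compared between whole animals of the 2 genotypes. RNA of B1a cells sorted by flow cytometry was labelled with Cy3 and read on one-colour Agilent arrays, 3 per genotype, and every sample pooled at least 3 mice.

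B1a cells are B cells that seed the body cavities early in life, express CD5 and make natural antibodies. Type I interferons (interferon α and β) bind a receptor built from Ifnar1 and Ifnar2, whose kinases Jak1 and Tyk2 activate Stat2. With Irf9 it takes part in a complex that binds the interferon-stimulated response element (ISRE) in promoters and turns on a shared set of antiviral genes. One of these, Irf7, is itself a factor for interferon genes and closes a positive loop, whereas Usp18 acts at the receptor to end signalling.

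All values below are log2 of the processed signal minus the 75th percentile of the same array, so a difference of 1 between genotypes is 2-fold. Each gene is read from its brightest probe, and levels are compared between arrays for 1 probe, not between genes. Signals of 35 members were well above background on all 6 arrays and were tested, and those of Ifi44, a cytoplasmic interferon-induced protein, and Ddx60, a helicase that aids RNA sensing, were not well above background on any array. In all, 18236 of 36163 genes were tested. The 75th percentile of the signal was lower on knockout arrays, at 66.5 to 162 units, than on control arrays, at 252 to 272 units, and no spot was saturated. The 6 arrays shared 1 slide and 1 scan. The targeted gene Il2ra read -0.31, -0.59 and 0.86 on knockout arrays 1 to 3 and 1.62, 1.13 and 1.35 on control arrays 1 to 3, whereas Il12b, deleted in both genotypes, differed by -0.022. Where their probes lie relative to the deleted sequence is not given in the sources used here.

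Relative to the other signals of the same array, a subset of interferon stimulated genes read higher in knockout than in control B1a cells. None read lower by the same thresholds. The thresholds of the study are 2-fold and an unadjusted p not above 0.05, and the p was taken here from limma. By these, 5 of 35 tested members were higher: Rtp4, a chaperone of receptor transport, Irf7, Usp18, Ifit3 and Oas2. Among all tested genes 2.25% were higher and 1.27% lower by these thresholds, and 0 members were lower. Another 5 members, Oasl2, Zbp1, Lgals3bp, Isg20 and Xaf1, were higher at an unadjusted p of at most 0.05 but by less than 2-fold, which makes 10 of 35 higher at that p against 11.6% of all genes, and 0 lower against 13.6%. No member passed the Benjamini-Hochberg adjusted p of 0.05 in limma, where the lowest value was 0.0957 for Irf7 and 7 of all genes passed (0.0384%). Under some other tools more members passed the adjusted p, but so did many more of all 18236 genes. A variance trend with robust estimation passed 4 members beside 755 of all genes, and array weights 5 beside 1499. Another background correction, normexp, passed 10 members (8 higher and 2 lower) beside 6467 of all genes when scaling was unchanged. The methods' t-test passed 0 members, as limma did, beside 2 of all genes.

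All knockout values were higher than all control values for 11 members and lower for 2, Mx1 and Ddx58, while 14.7% of all genes lay above and 21.6% below. The median difference of the 35 members was 0.20, and that of all tested genes was -0.12. Differences ranged from -0.39 for Mx1 to 1.50 for Rtp4, with 24 members higher and 11 lower in the mean. The members did not all move one way, and they are described by role below. Fewer cells that express a gene and less RNA per cell cannot be told apart in these samples.

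**Figure D1:**
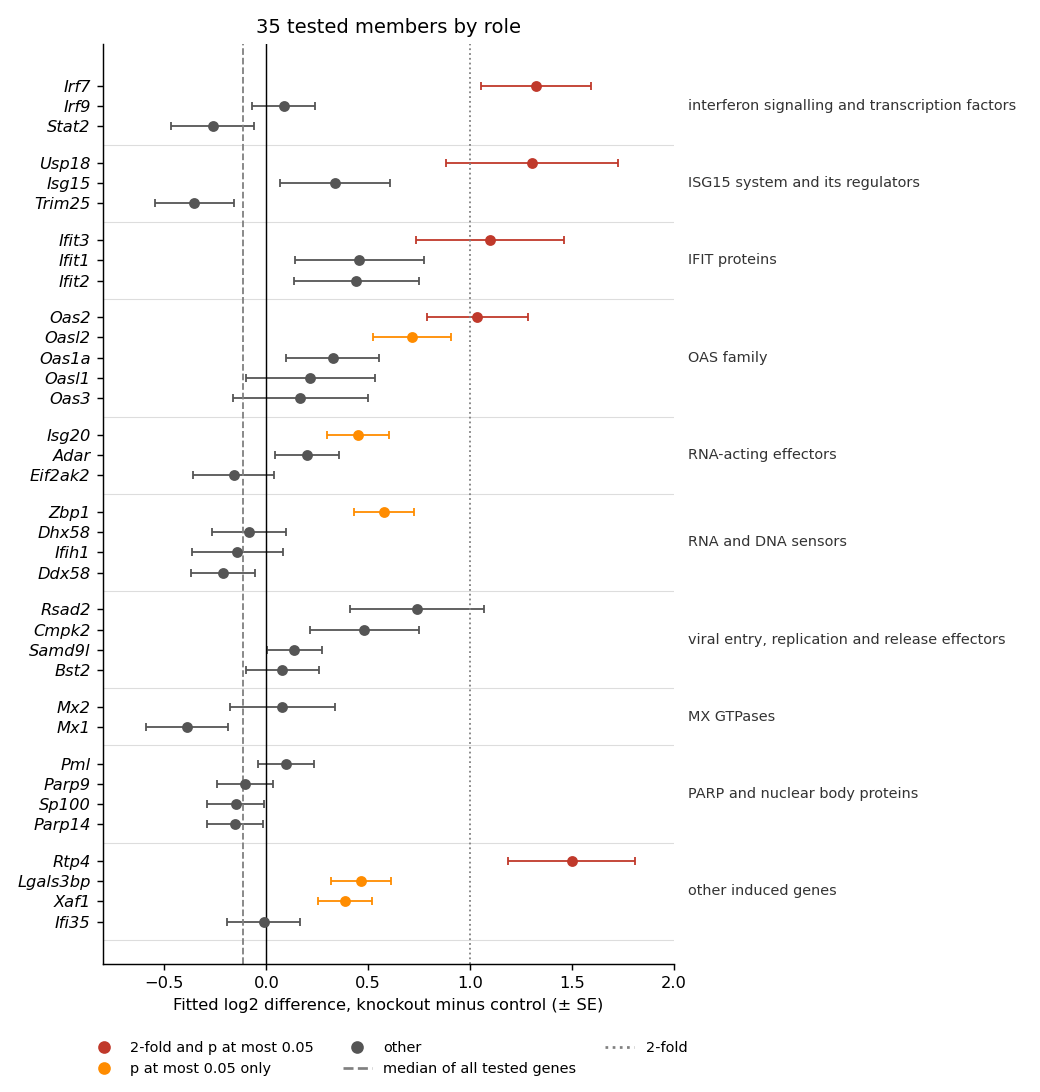
Fitted log2 difference (knockout minus control, horizontal axis, with SE) of the 35 tested members, grouped by role, from 3 arrays per genotype. Red points passed 2-fold with p at most 0.05, orange points passed p at most 0.05 alone, and the dashed line marks the median of all tested genes at -0.12; the 5 red points fall in 5 different roles.

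To show the sequences that the pathway's factors act on, the 250 bases before the start site were taken from RefSeq promoters (GRCm38.p6) for the 28 members with an entry. The ISRE core was searched as GAAANNGAAA on both strands, and the gamma-activated site, an element of interferon γ responses, as TTCNNNGAA, which reads the same on both strands; neither pattern holds the other. An ISRE core was found for 9 of 28 members (32.1%) and for 3.46% of 27025 genes with a promoter. The gamma-activated site was found for 5 members (17.9%) and for 8.13% of all genes, and 2 members, Oas1a and Bst2, held both. Below are 5 promoters, 5′ to 3′ along the gene, with ISRE cores in capitals. Isg15, Ifit1 and Oas1a are shown for their repeated cores, Ifit3 because it is the only member past the 2-fold thresholds that has an entry with a core, and Irf7 because it is past the thresholds and has no match to these letters.
Isg15 (chr4:156200819-156201068, minus strand): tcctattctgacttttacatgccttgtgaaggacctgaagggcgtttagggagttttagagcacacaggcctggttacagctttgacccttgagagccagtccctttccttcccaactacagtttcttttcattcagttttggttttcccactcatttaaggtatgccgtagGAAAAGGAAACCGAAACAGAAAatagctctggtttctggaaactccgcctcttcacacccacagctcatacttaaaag
Ifit1 (chr19:34640639-34640888, plus strand): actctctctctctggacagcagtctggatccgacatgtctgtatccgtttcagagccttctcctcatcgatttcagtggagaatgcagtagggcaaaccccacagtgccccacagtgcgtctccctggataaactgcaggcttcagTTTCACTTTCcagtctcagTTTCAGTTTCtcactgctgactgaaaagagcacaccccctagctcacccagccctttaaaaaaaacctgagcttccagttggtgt
Ifit3 (chr19:34583279-34583528, plus strand): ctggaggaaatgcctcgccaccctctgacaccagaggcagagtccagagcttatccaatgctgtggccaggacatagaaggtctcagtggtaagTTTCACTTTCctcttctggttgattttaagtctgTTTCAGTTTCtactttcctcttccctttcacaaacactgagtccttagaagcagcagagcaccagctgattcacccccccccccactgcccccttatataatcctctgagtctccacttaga
Oas1a (chr5:120907526-120907775, minus strand): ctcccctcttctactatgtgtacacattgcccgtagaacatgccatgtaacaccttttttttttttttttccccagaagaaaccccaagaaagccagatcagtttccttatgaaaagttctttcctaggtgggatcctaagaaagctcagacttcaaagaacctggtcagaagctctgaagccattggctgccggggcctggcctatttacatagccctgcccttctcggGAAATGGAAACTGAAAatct
Irf7 (chr7:141266425-141266674, minus strand): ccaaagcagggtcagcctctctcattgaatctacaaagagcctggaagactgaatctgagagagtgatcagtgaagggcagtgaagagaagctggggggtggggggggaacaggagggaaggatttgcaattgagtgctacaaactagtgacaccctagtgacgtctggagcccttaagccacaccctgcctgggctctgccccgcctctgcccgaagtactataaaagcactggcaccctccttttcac

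The 3 cores of Isg15 overlap, with first bases 78, 72 and 66 bases before the start. Those of Ifit1 begin 104 and 85 bases before it and those of Ifit3 156 and 122 bases, on the opposite strand to the gene, and in both genes the same letters, TTTCACTTTC and then TTTCAGTTTC, are found in that order. Single cores were found for Stat2, Oas3 and Rsad2 and pairs for Bst2 and Ddx60. Among the 6 members with an unadjusted p of at most 0.05 and a promoter entry, 1 had an ISRE core, and among the other 20 tested members with an entry, 7 had one. Rtp4, Usp18, Oas2 and Zbp1 have no entry and were not searched.

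Of the transcription factors, Irf7 was higher in knockout cells while Irf9 and Stat2 differed by less than the thresholds. Irf7 read -2.18, -1.25 and -1.81 on knockout arrays 1 to 3 and -3.22, -3.26 and -2.72 on control arrays 1 to 3. All 3 knockout arrays lay above all 3 controls, a 2.50-fold difference (log2 1.32, SE 0.27, adjusted p = 0.0957). Before scaling, however, the Irf7 signals overlapped, at 29.0, 28.0 and 46.2 units on the knockout arrays and 28.2, 26.4 and 41.1 on the controls. The difference is thus one of scaled values. With normexp background correction, which lifts dim signals, the difference was 0.79 with the 75th percentile and 0.30 with quantile normalization, and with array weights it was 0.97, all below 2-fold. The Irf7 probe is dim and covers chr7:148450664-148451014 in mm9, the build of the array files; its ends lie 351 bases apart.

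Irf9, the DNA-binding partner of the complex, read 4.17, 3.85 and 4.15 in knockout and 4.09, 3.97 and 3.85 in control samples. The difference was 0.085 (95% interval -0.28 to 0.45, adjusted p = 0.729), and the groups overlapped. Stat2 read 3.44, 3.31 and 3.84 in knockout and 4.08, 3.64 and 3.66 in control samples, a difference of -0.26 (95% interval -0.74 to 0.21, adjusted p = 0.403). Of the complex that carries the signal, these 2 members thus showed no difference beyond the spread between samples.

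Usp18, the protease that removes Isg15 from proteins and blocks the receptor, read -0.83, -0.36 and -1.36 on knockout arrays and -1.86, -3.05 and -1.56 on control arrays. It was 2.47-fold higher (log2 1.30, SE 0.42, adjusted p = 0.141). The controls spanned more than the difference between the means, since control 2 lay far below the other two. Without control 2 the difference was 0.85, and without knockout 2 it was 1.06 at an unadjusted p of 0.0618, each short of the thresholds. Isg15, the ubiquitin-like protein that Usp18 removes, read 2.01, 2.71 and 1.67 in knockout and 1.92, 1.61 and 1.86 in control samples. Knockout 1 and 2 stood above all controls and knockout 3 did not, and the difference of 0.34 (95% interval -0.30 to 0.97, adjusted p = 0.422) was 0.046 without knockout 2. A second, dim Isg15 probe gave 0.43. Trim25, a ligase for Isg15 and a partner of RNA sensing, differed by -0.35 with its brighter probe and by 0.18 with a second bright probe, so that its probes disagreed in direction.

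The interferon-induced proteins with tetratricopeptide repeats bind foreign RNA and slow its translation, and all 3 were higher in the mean. Ifit3 read 1.25, 0.0026 and 0.061 on knockout arrays and -0.26, -1.01 and -0.72 on control arrays. Knockout 1 was highest, and all 3 knockout arrays lay above the controls, with a 2.14-fold difference (log2 1.098, SE 0.37, adjusted p = 0.146). It missed the thresholds without knockout 1 (0.69) and without control 2 (0.92). Ifit1 read -2.36, -1.77 and -2.44 in knockout and -2.31, -3.30 and -2.33 in control samples, and the groups overlapped with a difference of 0.46 (95% interval -0.29 to 1.20, adjusted p = 0.363). Without control 2, which was the lowest array, the difference in Ifit1 was 0.13. Ifit2 differed by 0.44 and by 0.095 without knockout 1. The probes of these 3 genes lie within chr19:34650244-34723855 in mm9. Ifit3 has a near-identical copy in the mouse, Ifit3b, and whether its RNA binds the same probe was not tested.

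The oligoadenylate synthetases sense double-stranded RNA and make the activator of an RNA-degrading enzyme, and the related Oasl proteins carry ubiquitin-like domains. All 5 members of the family were higher in the mean, and 2 passed an unadjusted p of 0.05. Oas2 read 2.35, 2.78 and 2.24 on knockout arrays and 1.84, 1.01 and 1.40 on control arrays, with no overlap and a 2.05-fold difference (log2 1.04, SE 0.25, adjusted p = 0.110). It fell just short of 2-fold without knockout 2 (0.88) and without control 2 (0.83). Oasl2 read 1.50, 1.68 and 2.01 in knockout and 0.78, 1.12 and 1.16 in control samples. It was 1.64-fold higher without overlap (log2 0.71, SE 0.19, adjusted p = 0.121), and it kept an unadjusted p of at most 0.05 in all 20 alternatives. Oas1a, Oasl1 and Oas3 differed by 0.33, 0.22 and 0.17 with overlapping groups. A second, dimmer Oas1a probe differed by 0.46 (adjusted p = 0.139 over all probes). Oas1a has close paralogs beside it, such as Oas1g, and cross-hybridization was not tested. The probes of the 5 genes lie on chromosome 5.

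Among effectors that act on RNA, Isg20, an exonuclease, read 3.33, 3.21 and 3.22 in knockout and 2.96, 2.59 and 2.85 in control samples. The knockout arrays were close to each other and above all controls, a 1.37-fold difference (log2 0.45, SE 0.15, adjusted p = 0.148). Its unadjusted p was above 0.05 without knockout 1 (0.0660), control 2 (0.0753) or control 3 (0.0506), and its second probe differed by 0.65 (adjusted p = 0.0967 over all probes). Adar, an RNA-editing enzyme, differed by 0.20, and by -0.011 with a second probe. Eif2ak2, the kinase that stops translation on double-stranded RNA, differed by -0.16, and its groups overlapped.

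Of the tested sensors of RNA and DNA, 1 of 4 passed an unadjusted p of 0.05. Zbp1, a sensor of nucleic acids that can start cell death, read 3.65, 3.49 and 3.37 on knockout arrays and 3.07, 2.83 and 2.88 on control arrays. It was 1.49-fold higher with no overlap (log2 0.58, SE 0.15, adjusted p = 0.118). A second Zbp1 probe differed by 0.25, also without overlap. The cytoplasmic RNA helicases Ddx58 (RIG-I), Ifih1 (MDA5) and Dhx58 (LGP2) differed by -0.21, -0.14 and -0.085, beside a median of -0.12 over all tested genes. Ddx58 was lower on all 3 knockout arrays than on any control array, by 0.21 (adjusted p = 0.387), and overlapped with a second probe that differed by -0.065. When each array was scaled on its median detected probe, neither Ddx58 nor Mx1 stood apart from the controls.

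The members that act on viral entry, replication or release did not pass the thresholds. Rsad2 (viperin), an enzyme that makes a chain-terminating nucleotide, differed by 0.74 at an unadjusted p of 0.0577 (adjusted p = 0.209), and its neighbour Cmpk2, a nucleotide kinase, by 0.48. A second Cmpk2 probe differed by 0.73 with no overlap (adjusted p = 0.106 over all probes), so that the brighter probe was not the one with the larger difference. Samd9l, a restriction factor for poxviruses, differed by 0.14, and its 3 knockout arrays lay above the controls. Bst2 (tetherin), which holds budding viruses at the cell surface, differed by 0.078.

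Mx1, a GTPase that is not functional in C57BL/6 mice because of a deletion in the gene, read 0.039, 0.060 and -0.053 in knockout and 0.82, 0.27 and 0.13 in control samples. All knockout arrays lay below the controls, by 0.39 (95% interval -0.86 to 0.086, adjusted p = 0.256), a difference that was -0.18 without control 1. Mx2 differed by 0.078 and by -0.14 without control 2. The 4 members among poly(ADP-ribose) polymerases and nuclear bodies were close to the controls: Pml, the organizer of these bodies, differed by 0.096, Parp9 by -0.11, Sp100 by -0.15 and Parp14 by -0.15, with adjusted p-values of 0.472 and above.

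Rtp4 had the largest difference of the members. It read 1.99, 1.86 and 1.43 on knockout arrays 1 to 3 and 0.58, -0.43 and 0.64 on control arrays 1 to 3. All knockout arrays lay above all controls, with control 2 lowest, for a 2.82-fold difference (log2 1.50, SE 0.31, adjusted p = 0.1005). Rtp4 passed the 2-fold thresholds in all 20 alternatives, with differences from 1.14 to 1.69, and was the only member to do so. Its probe lies at chr16:23613668-23613727 in mm9.

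Lgals3bp, a secreted galectin-binding glycoprotein, read 4.14, 4.30 and 3.97 in knockout and 3.72, 3.71 and 3.58 in control samples, a 1.38-fold difference (log2 0.47, SE 0.15, adjusted p = 0.138) with no overlap. A second probe differed by 0.43 with overlapping groups, and without control 3 the unadjusted p was 0.0668. Xaf1, a pro-apoptotic protein, read 1.80, 1.67 and 1.82 in knockout and 1.39, 1.45 and 1.29 in control samples. The samples were tight within each genotype and did not overlap, with a 1.31-fold difference (log2 0.39, SE 0.13, adjusted p = 0.154). A second, dim Xaf1 probe differed by 0.039, and the unadjusted p was above 0.05 without knockout 1 (0.0700), knockout 3 (0.0585), control 1 (0.0547) or control 3 (0.0986). Ifi35, which binds the interferon-induced protein Nmi, differed by -0.013.

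**Figure D2:**
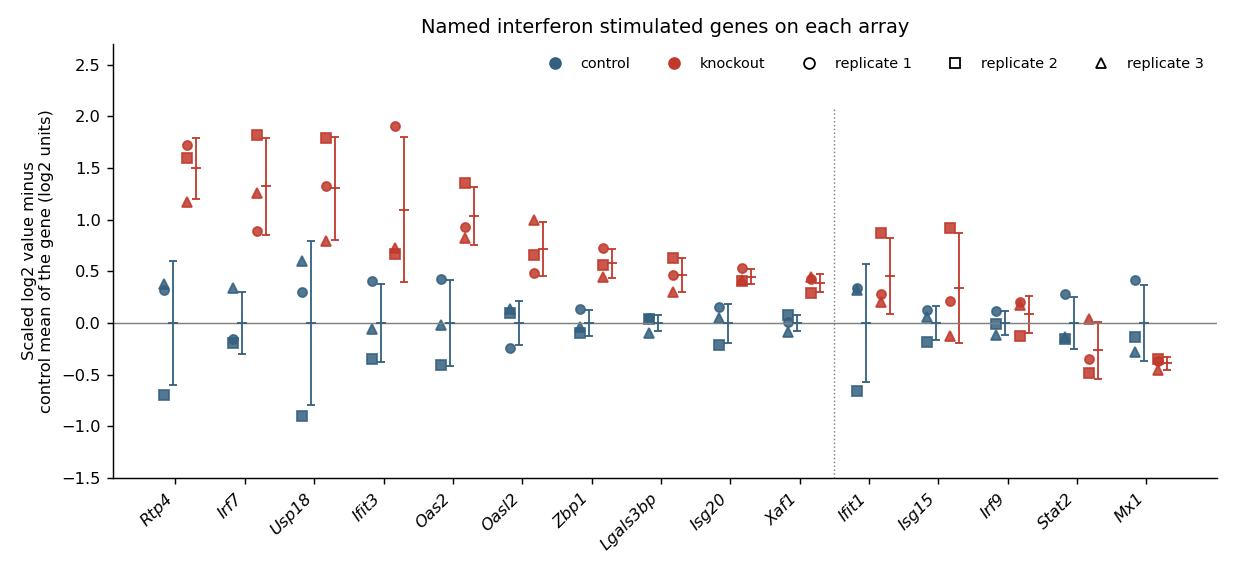
Scaled log2 value of each array minus the gene's control mean (vertical axis, log2 units) for the 10 members with p at most 0.05, left of the dotted line, and 5 further named members; symbols are replicates and bars are mean ± SD of 3 arrays. The red knockout points lie above every blue control point for the 10 members on the left and overlap them for Ifit1, Isg15, Irf9 and Stat2.

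The arrays of a genotype did not rank alike over the members. Knockout 1 was the highest knockout array for 14 of 35 members, knockout 2 for 12 and knockout 3 for 9. Ifit2 and Ifit3 were highest on knockout 1, whereas Isg15, Usp18, Irf7 and Oas2 were highest on knockout 2. Control 2 was the lowest control array for 18 of 35 members and for 7 of the 10 with p at most 0.05, and control 1 was the highest for 23. The median of the members against their control means was 0.22, 0.12 and 0.097 on knockout arrays 1 to 3, and 0.12, -0.14 and -0.037 on control arrays 1 to 3. The same median over all tested genes was -0.089, -0.17 and -0.062 on the knockout arrays and 0.0046, -0.031 and 0.025 on the control arrays, so that the members lay above all genes on each knockout array and on control 1, and below them on control 2 and control 3.

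Since signals were lower on the knockout arrays, the unscaled signals were set beside the scaled values. Before scaling, 25 of 35 members had lower signals on every knockout array than on any control array, the other 10 overlapped, and 0 were higher throughout. The mean of log2 signals was higher in knockout samples for 3 members alone, Rtp4 by 0.27, Irf7 by 0.097 and Usp18 by 0.075. Rtp4 signals were 520, 242 and 436 units on knockout arrays and 394, 187 and 423 on control arrays. The 2-fold calls are thus calls on values relative to the other signals of the same array.

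**Figure D3:**
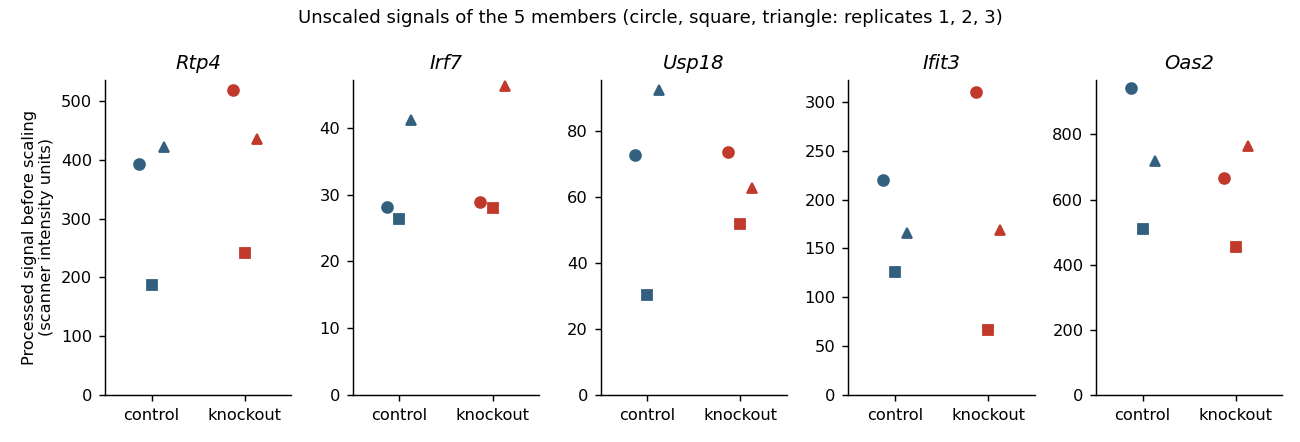
Processed signal before scaling between arrays (vertical axis from 0, scanner intensity units) of the 5 members past the 2-fold thresholds, with 1 point per array. Control and knockout points overlap for all 5 genes, among them Irf7 at 28.0 to 46.2 units in knockout and 26.4 to 41.1 in control samples.

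Dim genes as a whole differed from bright ones, so the members were also read against genes of a like brightness, in bands chosen after the values were seen. Among the 3519 tested genes with a mean scaled value below -2, the median difference was 0.096 and 5.09% were higher by the 2-fold thresholds, while among the 3081 genes above 4 these were -0.13 and 0.519%. Irf7 and Ifit1 fall in the dimmest band, Usp18 and Ifit3 in the next one, where the median was 0.054 and 3.3% were higher, and Rtp4 and Oas2 in the band from 0 to 2, where the median was -0.16 and 1.37% were higher. Of the 35 members, 28 lay above the median of their own band. From the dimmest band to the brightest this held for 2 of 2, 6 of 8, 8 of 10, 9 of 10 and 3 of 5 members. In the brightest band the members' median was 0.085 against -0.13 for all genes, and in the band from 2 to 4 it was 0.14 against -0.24.

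**Figure D4:**
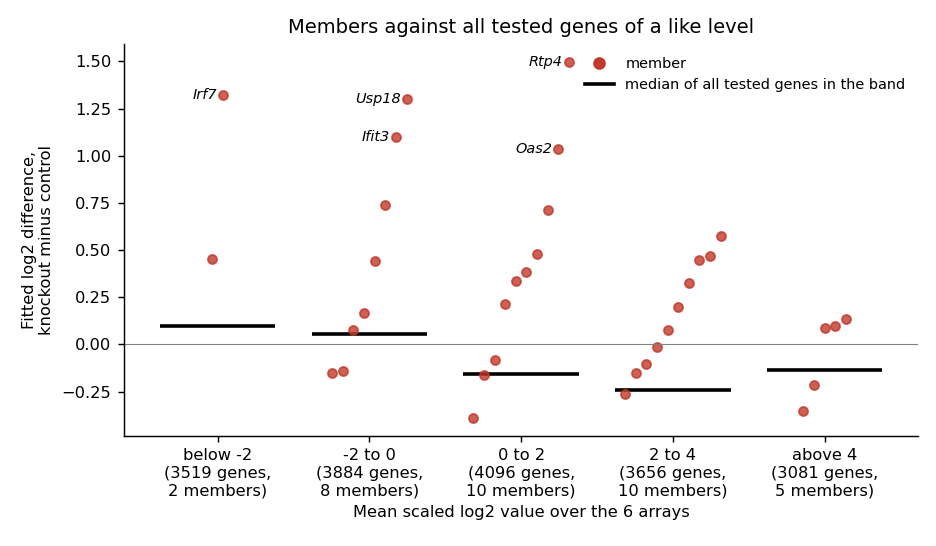
Fitted log2 difference (vertical axis) of each member, as red points, in bands of the mean scaled log2 value over the 6 arrays (horizontal axis); black lines are the medians of all tested genes in the band. The medians of all genes fall from 0.096 in the dimmest band to -0.24 in the band from 2 to 4, and most members lie above them.

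Upstream of the members, no gene of the type I interferon ligands and receptor passed the thresholds. Of 15 on the array 3 were tested, Ifnk, which was well above background on the 3 control arrays and no knockout array, Ifnar1 at -0.24 (adjusted p = 0.384) and Ifnar2 at -0.13 (adjusted p = 0.571). Among the ligands not tested, Ifnb1 (interferon β) was well above background on knockout 3 alone, at 55.9 units, and Ifna1, Ifna5, Ifna7, Ifna14 and Ifnab on 1 or 2 control arrays and no knockout array. The lowest scaled value well above background was -3.67 to -2.47 on knockout arrays and -4.55 to -4.09 on control arrays, so these counts do not compare the genotypes. Of the 11 genes of signalling from the receptor, 1 was higher and 1 lower at an unadjusted p of at most 0.05. The receptor kinases Jak1 and Tyk2 differed by -0.043 (adjusted p = 0.854) and -0.47 (adjusted p = 0.286). Among 12 tested genes of sensing and induction, 1 was higher and 2 were lower at an unadjusted p of at most 0.05, and 0 passed 2-fold. Over all tested genes 11.6% were higher and 13.6% lower at that p.

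Among 38 further interferon stimulated genes with a test, 2 were higher by the 2-fold thresholds and 0 lower. Over all tested genes these shares were 2.25% and 1.27%. Slfn5, a schlafen family protein, differed by 1.28 (SE 0.30, adjusted p = 0.106), and Gm14446, a predicted gene whose probe lies at chr19:34667950-34668009 beside that of Ifit3, by 1.47 (SE 0.42, adjusted p = 0.126). Gm14446 read 2.19, 0.48 and 0.89 in knockout and 0.031, -0.40 and -0.48 in control samples, with knockout 1 highest as for Ifit3. The median of this list was 0.022. At an unadjusted p of at most 0.05, 4 of its 38 genes were higher, near the share of 11.6% over all tested genes. At that p 1 was lower, against 13.6% of all tested genes. In the 17 tested genes that interferon γ induces, 3 were higher and 0 lower at that p, with a median of 0.20. Interferon γ itself, Ifng, was not tested and was well above background on knockout 3 alone, at 56.1 units. Tgtp2, a GTPase of the immunity-related family, read 4.46, 3.97 and 3.73 in knockout and 1.92, 1.59 and 1.43 in control samples, 5.31-fold higher (log2 2.41, SE 0.23, adjusted p = 0.0325). Tgtp2 has a near-identical copy, Tgtp1, and the probe may bind both. Type I and type II interferons share many targets, and the array does not tell which interferon a change came from.

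The sorted cells carried B cell and B1a markers on every array, with all 9 of the listed genes that are on the array well above background and a summed linear level (multiples of the array's 75th percentile) of 1350 to 1563 in knockout and 1321 to 1377 in control samples. Such a sum is set mostly by the brightest probes of a list, so it describes the arrays and supports no comparison between genes. T cell markers, 6 of 8 above background on all arrays, summed to 13.5 to 16.0 in knockout and 8.99 to 14.8 in control samples, with 5 of 6 tested genes higher in the mean and a median of 0.54. At an unadjusted p of at most 0.05, 2 were higher and 0 lower: Cd3e differed by 0.60 without overlap (adjusted p = 0.126), and Cd3d, past the 2-fold thresholds, by 1.41 with overlapping groups (adjusted p = 0.188) and its highest value on knockout 3. Cd3g differed by -0.28. Cd8a and Cd8b1 were well above background on 1 array each, knockout 3. Genes listed as markers of plasmacytoid dendritic cells summed to 137 to 186 in knockout and 126 to 130 in control samples. Of these, 5 of 6 were above background on all arrays. Whether B1a cells or other cells gave these signals was not tested, so the sum does not count such cells. The 5 tested genes of the list went both ways, with a median of 0.078: Irf8 differed by 0.69, Siglech by 0.50, Bst2, also a member here, by 0.078, Tcf4 by -0.11 and Ccr9 by -0.52. Macrophage markers, 9 of 11 above background on all arrays, summed to 25.7 to 45.2 in knockout and 34.8 to 74.1 in control samples, and all 10 tested ones were lower in the mean, with a median of -0.41. Of these, 3 had an unadjusted p of at most 0.05, and Lyz2 and Mrc1 were lower by the 2-fold thresholds. Over all tested genes 11.6% were higher and 13.6% lower at that p, and 1.27% were lower by the 2-fold thresholds. Fcgr1 was well above background on 1 knockout array and all 3 control arrays, so its direction was not independent of the filter. Plasma cell markers, 3 of 4 above background on all arrays, summed to 45.3 to 55.4 in knockout and 61.0 to 70.0 in control samples. All 4 were lower in the mean, with a median of -0.50 and 1 at an unadjusted p of at most 0.05. The gene outside those 3 was tested through the arrays of 1 genotype alone, so its direction was not independent of the filter. NK cell markers summed to 0.32 to 0.51 against 0.098 to 0.35, with Ncr1, Klrb1c and Klra8 above background on no array, and granulocyte and mast cell markers to 0.29 to 0.57 against 0.27 to 3.42, with 0 of 4 above background on all arrays. The part of these cells in the members' values was not tested.

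Across 20 other ways of processing the same arrays, the 10 members with p at most 0.05 were higher in knockout cells in every one. So were Isg15, Ifit1, Ifit2, Oas1a, Rsad2 and Cmpk2, whose p was above 0.05. The 10 were chosen for being higher on these same arrays, so their direction was largely set by that choice. Whether they passed 2-fold varied: Rtp4 did in 20 of 20 alternatives, Irf7 in 17, Oas2 in 16, Ifit3 in 15 and Usp18 in 14. With the 75th percentile kept and normexp used for the background, Zbp1 differed by 0.29, Isg20 by 0.18, Lgals3bp by 0.17 and Xaf1 by 0.16, and all 4 lost their unadjusted p of at most 0.05, while Usp18 and Ifit3 at 0.87 and Oas2 at 0.72 fell short of 2-fold. Isg20 and Xaf1 also lost it with no filter on dim probes, and Xaf1 with the mean of its probes, at 0.21. The share of 2-fold calls over all genes that were higher was 64.0% as reported, 46.2% with quantile normalization and 77.3% with median scaling, and 5 members passed under each of these scalings.

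**Figure D5:**
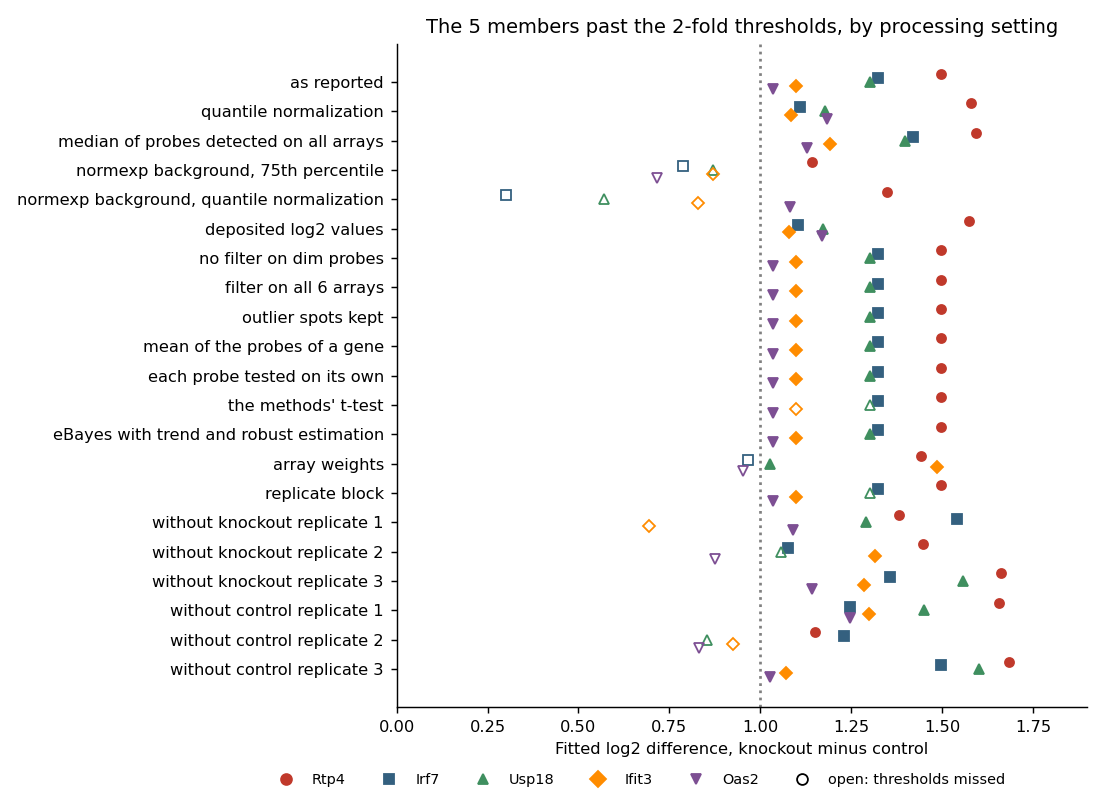
Fitted log2 difference (horizontal axis, knockout minus control) of the 5 members past the 2-fold thresholds, under the reported processing and 20 alternatives (rows); open symbols missed the thresholds and the dotted line marks 2-fold. Rtp4 lies right of the line throughout, and Irf7 drops to 0.30 with normexp background correction and quantile normalization.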

How the data were processed

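Total RNA of sorted PC B1a cells, 3 samples per genotype, was hybridized to one-colour arrays. The authors deposited spot intensity values from Feature Extraction 10.7.1.1 (per the submitters' processing notes), which subtracts background and does not scale arrays to each other, and their own log2 values. Of the intensities, log2 was taken, the 75th percentile of 59305 non-control spots subtracted, outlier spots dropped and spots of a probe averaged. A gene, read from its brightest probe, was tested where well above background on all 3 arrays of 1 genotype and measured on at least 2 of each. Genotypes were compared with limma 3.58.1 (R 4.3.3; lmFit and eBayes, no covariates), adjusted by the Benjamini-Hochberg method over 18236 genes; steps were tested on simulated data. Members and lists were chosen with earlier results of these data known. Per-array values are given for members with p at most 0.05 and for Irf7, Irf9, Stat2, Isg15, Usp18, Ifit1 and Mx1. By accession 34 members matched RefSeq. Some genes that these lists cover are not reported by name. Exon and UTR positions of probes are not used here. With 3 arrays against 3, an exact permutation test cannot go below 0.1; the samples are pools of mice, and precision is limited by their number. Alternatives were other scalings, background corrections, filters, probe rules, tests, the deposited log2 values, the replicate block and leaving out each array.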

Additional observations from a re-analysis of the deposited data

How the results depend on the processing

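The members higher by 2-fold numbered 5 as reported, 1 with normexp and the 75th percentile, 2 with normexp and quantile normalization, 3 with the methods' t-test and 3 with array weights, and 2 to 6 when 1 array was left out; none was lower by 2-fold in any of the 20 alternatives. The members past the adjusted p numbered 0 as reported, 10 with normexp and the 75th percentile (8 higher in knockout and 2, Stat2 and Trim25, lower), 4 with a trend and robust estimation, 5 with array weights and 0 in the other alternatives, leaving out any array included. Over all genes that count was 7 as reported, 6467, 755 and 1499 in those 3 alternatives and 2 to 92 in the others, and genes higher by 2-fold numbered 411 as reported, from 103 with normexp and the 75th percentile to 10386 with no filter on dim probes, and lower ones 231, from 31 with normexp and quantile normalization to 402 with the deposited values. Members below all controls numbered 2 as reported, beside 3946 of all genes, and 0 with median scaling, beside 2769. They numbered 1 with quantile normalization (3070 of all genes), the deposited values (3223) or the mean of probes (3600). With normexp and the 75th percentile they numbered 5, beside 5436 of all genes. With an array left out they numbered 2 to 6, beside 4369 to 5894, and fewer arrays separate more easily. The median of the members was 0.20 as reported, 0.057 with normexp and the 75th percentile and 0.15 to 0.22 with an array left out. Irf9 turned to -0.22 with normexp and the 75th percentile. The causes of these changes were not tested.

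The labels number the samples of both genotypes 1 to 3. Same-numbered arrays deviated together with correlations of 0.19, 0.056 and 0.094, so the numbers were not taken as pairs. With the replicate block 4 members passed 2-fold, since Usp18 had an unadjusted p of 0.0520, 0 passed the adjusted p and 4 of all genes did. The 3 arrays per genotype and the low signal of the knockout arrays, which brings dim genes such as Irf7 and Ifit1 near background, limit what these values can show.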
